A study of Saccharomyces cerevisiae with 5 samples.

Results

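MATAC-Seq of replication origin chromatin was examined in yeast cells without Ies6, a subunit of the INO80 chromatin remodeler, and in wildtype cells. All reads of the 2 ies6Δ libraries and of the 1 wildtype library were taken for the origins ARS305, ARS315, ARS313 and ARS316. These are 3 of 5 libraries and 15667 of 28147 origin molecules (5556 of wildtype, 4856 of ies6Δ replicate 1 and 5255 of ies6Δ replicate 2). The other 2 libraries, of isw2Δ cells, entered the statistical fits and are otherwise named only where their position relative to wildtype bears on a count. ARS305 and ARS315 are early-efficient (EE) origins and ARS313 and ARS316 are late-inefficient (LI) origins on chromosome III.

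Every library pooled 4 strains, each with recombination sites and LexA sites around 1 of the origins, outside the third nucleosome on either side (RS_LEXA_NS-3 to NS+3_RS). All strains were MATa and carried ura3delta0, leu2delta0, his3delta1, met15delta0 and bar1::kanMX4. They also carried the pTEF2-LEXATAP and pGAL1-10 RecR cassettes with LEU2 on chromosome I, so that galactose drives the recombinase and the TEF2 promoter drives the LexA-TAP protein used for purification. The ies6Δ strains had ies6delta::his in addition, the isw2Δ strains isw2delta::ura3. Each genotype is given as 1 strain for each origin, and both replicates of a mutant came from the same strains. Cells were treated with α-factor, which arrests them in G1, while galactose induced the recombinase. The purified rings were methylated in vitro at adenines (EcoGII) and at cytosines in GpC and CpG (M.CviPI and M.SssI), together with 2 spike-ins, an array of nucleosomes reconstituted in vitro and a plasmid free of protein, and single molecules were then read on Nanopore flow cells. The wildtype library is the one numbered 2, and another wildtype library was not analysed here. The deletion of IES6 itself could not be checked in these data, because only the rings and spike-ins are in the tables.

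INO80 is an ATP-dependent remodeler that slides nucleosomes and spaces them, and it acts at promoters, at DNA breaks and at replication forks. Ies6 is a subunit needed for the remodeling activity of the complex. An active yeast origin has a nucleosome-free region (NFR) over the ARS consensus sequence, where the origin recognition complex binds, with positioned nucleosomes on either side. The + side is the side nearest the T-rich strand of that sequence. A DNA methyltransferase reaches the NFR and the linkers between nucleosomes, while DNA wrapped in a nucleosome or covered by another protein stays unmethylated, so that a long unmethylated stretch on a molecule is read as a footprint.

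At ARS305, ARS315 and ARS313 the NFR lies within the segment that an oligonucleotide pair of the study brackets. At ARS316 the segment overlaps the NFR in part, and the reverse oligonucleotide (positions 685–707) lies inside the NFR (positions 601–720). With this exception, the oligonucleotides are shown because they give DNA beside the accessible centre. Capitals mark A and C, the bases whose methylation is read on a read of that strand.

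ARS305 forward: tttCAtgtACtgtCCggtgt

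ARS305 reverse: tttttAgCCCCCgtgtAAgtt

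ARS315 forward: tgtgtgtttgtAtACtCtgtggg

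ARS315 reverse: tAAgCggCAAAACACttgtgt

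ARS313 forward: tCAAAgAAAAggtgCtgCtgA

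ARS313 reverse: tCttCCgtCttAAAAggtAgCAC

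ARS316 forward: CggCAttAtCgtACACAACCt

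ARS316 reverse: gttCttCgttgCCtACAttttCt

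The pairs of ARS305, ARS313 and ARS316 are qPCR primers, and the pair of ARS315 made a hybridisation probe. They were placed on the rings by the order of positions that are called on forward and on reverse reads. Each of the 8 oligonucleotides had a single placement with a match at every position. The intervals between them span 203 bp at ARS305 and also at ARS313, 250 bp at ARS315 and 160 bp at ARS316. Position 1 is the first column of the deposited tables, and no chromosomal coordinates of the rings were used.

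Each of the 4597 ring positions was called on 1 strand only, 2352 on forward reads and 2245 on reverse reads. A position is 1 (methylated) or 0 in every molecule. Depth was 492 to 819 molecules for each origin and strand in wildtype and 780 in ies6Δ, except for ARS316 in ies6Δ with 176 molecules in replicate 1 and 575 in replicate 2 over both strands. The wildtype plasmid had 52 reverse reads. Wildtype was less methylated also on the spike-ins. The array was methylated at 6.95% of positions in wildtype and at 10.2% and 9.04% in ies6Δ, and the plasmid at 25%, 33.2% and 33%. Methylation levels were therefore divided by the array mean of the same library and strand (level 1 = array mean). Footprints cannot be divided, so calls were removed at random until each array had the lowest mean of all libraries, 6.67%. This left all calls of wildtype forward reads, 92.3% of wildtype reverse reads, 62.5% and 68.1% in ies6Δ replicate 1, and 71.6% and 76.3% in ies6Δ replicate 2. With a single wildtype library, p-values rest on the spread between the libraries of each mutant, pooled over all windows or regions of a fit, and the spread of wildtype does not enter them. The smallest p that exact permutation of 3 libraries (2 against 1) allows is 0.333.

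The share of each ring that lay in unmethylated stretches of at least 100 bp was lower in both ies6Δ libraries at all 4 origins. At ARS305, 53.3% of positions lay in such stretches in wildtype, and 42.6% and 47.0% in ies6Δ. At ARS315, the share was 47.6% in wildtype and 39.8% and 44.4% in ies6Δ. At ARS313, it was 54.3% in wildtype and 40.8% and 47.1% in ies6Δ, and at ARS316 54.8% against 42.0% and 43.6%. On the array, the share was 49.8% in wildtype and 48.7% and 52.3% in ies6Δ, so that wildtype lay between the mutant libraries. Because calls were thinned to a common array mean, the array is no independent control of this share. Without thinning it fell too, from 48.7% in wildtype to 38.2% and 44.9% in ies6Δ, by 7.06 percentage points on average against 10.5 to 16.7 at the origins. The median difference over the origins was -9.43 percentage points (-11.7 in replicate 1 and -6.78 in replicate 2). On the naked plasmid, 2.38% of positions in wildtype and 0.904% and 1.01% in ies6Δ lay in such stretches, which is the background of long stretches on protein-free DNA.

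Protection was then compared in 152 windows of 30 bp along the rings by the share of molecules whose window midpoint lay in a stretch of at least 100 bp. In limma with Benjamini-Hochberg adjustment, protection was lower in ies6Δ in 54 windows (35.5% of those tested) and higher in 1 (0.658%). By origin, protection fell in 12 windows each at ARS305 and ARS313, in 6 at ARS315 and in 24 at ARS316. The 1 window with more protection lies at ARS315. The count depends on ies6Δ replicate 1, which had less protection than replicate 2 at every origin. Without it no window passed the threshold in limma, with 41 at an unadjusted p under 0.05, and 58 passed without replicate 2. The comparison also rests on the wildtype library as a whole. Both isw2Δ libraries lay below wildtype in 151 windows, among them all 54 called as lower in ies6Δ, and the ies6Δ libraries in 138 windows. A feature of that library and an effect of the deletion cannot be told apart in these data.

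**Figure D1:**
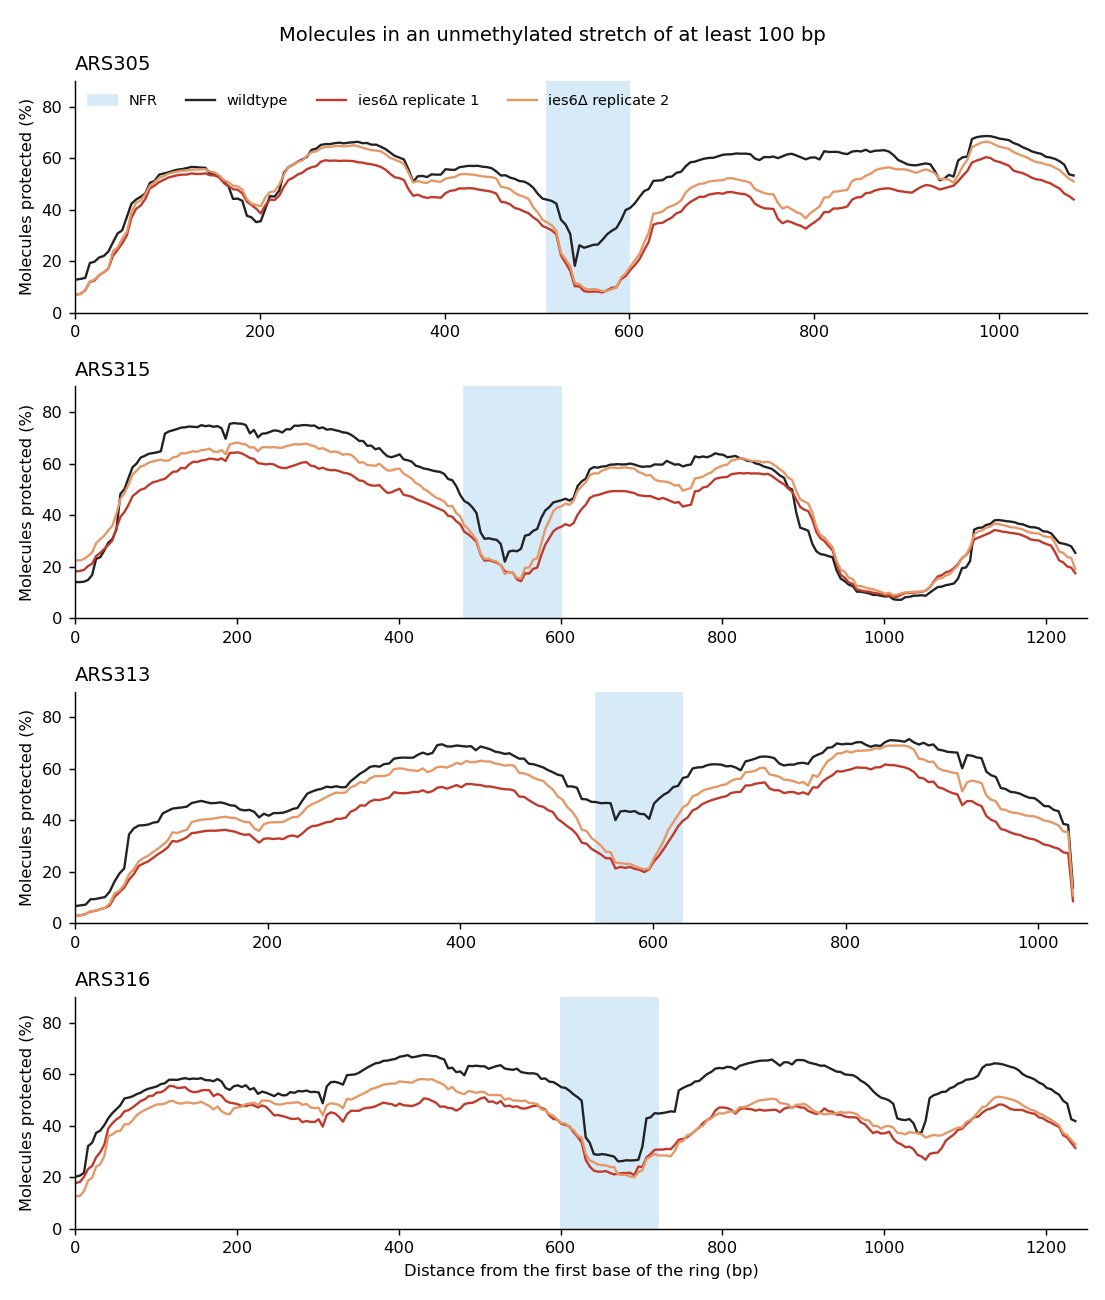
Share of molecules (%) whose position lies in an unmethylated stretch of at least 100 bp, along the 4 rings (distance from the first base, bp), for wildtype (black) and both ies6Δ libraries (red, orange). Shading marks the NFR. At the middle of the NFR, the ies6Δ lines lie at 7.94% and 9.04% against 25.5% in wildtype at ARS305, and at 20.9% and 21.8% against 42.4% at ARS313.

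The largest change of protection was over the NFR of ARS305. At positions 571–600, 32.4% of wildtype molecules were protected, and 9.83% and 9.54% of ies6Δ molecules (log2 odds change -2.16 ± 0.30 SE, limma adjusted p = 4.5e-10). The neighbouring windows followed, with 25.7% in wildtype against 8.19% and 9.12% at positions 541–570, and 46.6% against 23.1% and 25.6% at positions 601–630. Windows with less protection formed a run of 5 from position 511 to 660 and a run of 6 from position 691 to 870. The first run covers the NFR and its + side edge, the second the linker between the +1 and +2 nucleosomes with the DNA on both sides of it, including the centre of the +2 footprint. The window at positions 661–690 between the runs did not pass the threshold (limma adjusted p = 0.059). On the - side of this origin, the window at the end of the ring (positions 1–30) fell from 19.4% to 12% and 12.2%, and no window between positions 31 and 510 passed.

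At ARS313, an LI origin, the NFR window at positions 571–600 was protected in 42.5% of wildtype molecules and in 20.8% and 21.6% of ies6Δ molecules (log2 odds change -1.46 ± 0.30 SE, limma adjusted p = 7.1e-05). The window at positions 541–570 had 46.9% in wildtype and 25.1% and 27.6% in ies6Δ. The run of called windows spans positions 511 to 660, as at ARS305. Windows with less protection were also called at positions 1–90, 361–390 and 901–990, for example 9.38% in wildtype against 4.65% and 4.76% at positions 1–30.

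At ARS315, the NFR window at positions 541–570 was protected in 31.1% of wildtype molecules and in 16.6% and 18.7% of ies6Δ molecules (log2 odds change -1.07 ± 0.30 SE, limma adjusted p = 4.4e-03). The other called windows with less protection lie on the - side, with 74.3% in wildtype against 58.2% and 64.2% in ies6Δ at positions 121–150, and 70.2% against 54.4% and 61.8% at positions 331–360. Protection rose at positions 1–30, from 14.6% in wildtype to 20.2% and 23.9% in ies6Δ.

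At ARS316, the other LI origin, the called windows lie mostly outside the NFR. A run of 10 windows from position 691 to 990 had a mean protection of 58.2% in wildtype and of 41.2% and 41.3% in ies6Δ. A run of 6 windows from position 1051 to 1230 had 57.7% in wildtype and 40.9% and 43.4% in ies6Δ. Within them, positions 1051–1080 were protected in 52.4% of wildtype molecules against 29.5% and 36.2% (log2 odds change -1.18 ± 0.30 SE, limma adjusted p = 1.8e-03), positions 751–780 in 57.0% against 37.6% and 37.2%, and positions 901–930 in 63.8% against 44.1% and 45.2%. The ies6Δ values of ARS316 rest on 176 and 575 molecules.

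The same molecules were then scored at the middle of 19 regions, read by eye from the profile figure of the study (the ARS, the NFR, its + side, linkers and, at ARS315, the promoter of TVS1). Intervals given here are 95% Wilson intervals and cover the counting of molecules only. The NFR of ARS305 was protected on 25.5% of wildtype molecules (23–27.4%, 1495 molecules) and on 7.94% (6.71–9.40%) and 9.04% (7.71–10.6%) of 1560 ies6Δ molecules each. The NFR of ARS313 was protected on 42.4% of 985 wildtype molecules (39.4–45.5%) and on 20.9% and 21.8% of the ies6Δ molecules. The NFR of ARS315 had 26.2% in wildtype (23.7–28.2%) and 17.7% and 17.6% in ies6Δ. At ARS316, 28.6% of 1599 wildtype molecules were protected (26.5–31%), and 21.5% (16.2–28.2%) and 24.3% (21.2–28.2%) in ies6Δ, so that the intervals overlap with wildtype.

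The strands of wildtype gave different values. Over the NFR of ARS305, 33.7% of forward and 17.3% of reverse molecules were protected in wildtype, against 9.64% and 6.23% in ies6Δ replicate 1 and 9.74% and 8.33% in replicate 2, so that ies6Δ was lower on each strand. Wildtype also had more molecules with few methylated positions. At ARS305, 5.84% of wildtype molecules and 1.22% and 1.03% of ies6Δ molecules carried under 10 methylated positions after thinning. With molecules of at least 10 calls alone, the NFR of ARS305 was protected on 21.7% of wildtype and on 6.88% and 8.27% of ies6Δ molecules.

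The stretches that covered the NFR were shorter in ies6Δ where they occurred. At ARS305 their median length was 297 bp in wildtype and 249.5 bp and 231.5 bp in ies6Δ. At ARS315 it was 262 bp against 199.5 bp and 213.5 bp, at ARS313 243 bp against 197 bp and 212 bp, and at ARS316 268.75 bp against 202.75 bp and 196.75 bp. In all 4 origins wildtype had the longest median, and in wildtype between 60.9% and 69.7% of these stretches reached 200 bp or more. These are thus mostly stretches longer than the DNA of a single nucleosome.

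The regions named as linkers were protected on fewer molecules in ies6Δ too. They were read from the profile figure and not from the footprint centres mapped below. The linker between the +1 and +2 nucleosomes of ARS305 was protected on 62.6% of wildtype molecules and on 39.1% and 45% of ies6Δ molecules. The +1/+2 linker of ARS315 had 58.0% in wildtype and 44.1% and 48.5% in ies6Δ. These regions were scored at positions 810 and 765, nearer to the +2 than to the +1 centre peaks of wildtype. The +2 peaks lie at 851 bp and 815 bp, and the ARS305 region (positions 751–870) holds its +2 peak. Coverage by the +2 footprint thus enters these shares. The first linker downstream of ARS316 had 63.7% against 43.6% and 45%, and the second 63.5% against 45.6% and 48.3%. The middles of these ARS316 regions, positions 915 and 1125, lie near the third and the last + side centre peak of wildtype (942 bp and 1127 bp). Their shares are therefore no measure of a linker alone. At the + side linker of ARS313 the shares were 42.7% in wildtype and 33.2% and 39.6% in ies6Δ, and here replicate 2 lay at the lower bound of the wildtype interval (39.6–45.8%).

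The promoter of TVS1 (YCR061W; chromosome III, 225563–227458, R64) lies on the + side of ARS315 and went the other way by a small margin. It was protected on 6.88% of wildtype molecules (5.85–8.46%) and on 8.97% and 8.95% of ies6Δ molecules, and the intervals overlap (7.65–10.5% in both ies6Δ libraries). Without thinning, the difference at the promoter was -0.0687 percentage points. The promoter edge facing the ARS had 50.3% in wildtype and 49.2% and 53.7% in ies6Δ, with no common direction.

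**Figure D2:**
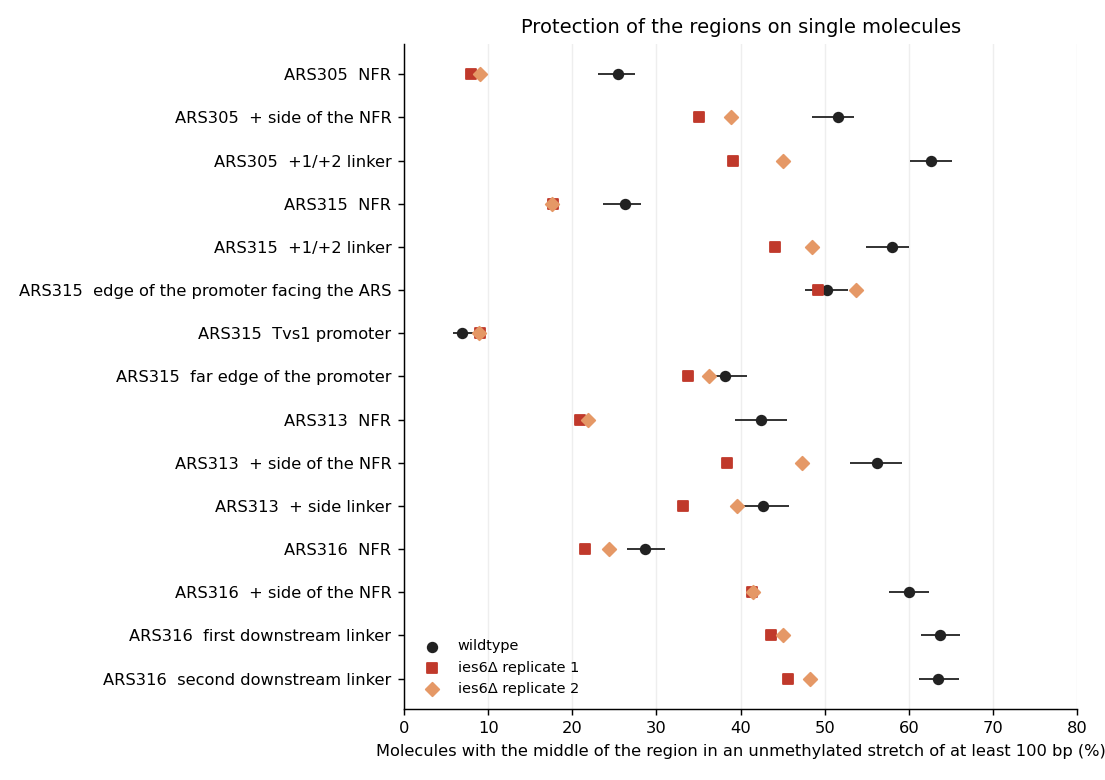
Share of molecules (%) with the middle of a region in an unmethylated stretch of at least 100 bp, for wildtype (black circles, bars are 95% Wilson intervals of counting) and ies6Δ replicates 1 (red squares) and 2 (orange diamonds). Over the ARS305 NFR 25.5% of wildtype molecules stand against 7.94% and 9.04%, and the Tvs1 promoter is the region nearest 0 in wildtype.

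The NFR and the regions named as linkers were often protected on the same molecules. In wildtype ARS305, the +1/+2 linker was protected on 81.3% of molecules with a protected NFR and on 55.8% of the others. In ies6Δ the values were 67.5% and 36.6% in replicate 1 and 61.5% and 43.3% in replicate 2. At ARS315 the +1/+2 linker had 76.4% and 52.0% in wildtype, 58.1% and 41.1% in replicate 1 and 61.4% and 45.8% in replicate 2. At the first downstream linker of ARS316 the shares were 76.4% and 58.5% in wildtype, 65.3% and 37.5% in replicate 1 and 57.6% and 40.8% in replicate 2. In every one of these libraries the linker was protected more often where the NFR was. The linker was protected less often in ies6Δ than in wildtype both on molecules with an open and on molecules with a protected NFR. Molecules with a low methylation overall add to such a co-occurrence. A single long stretch can also cover both scored points, which lie at positions 555 and 810 at ARS305, 540 and 765 at ARS315, and 660 and 915 at ARS316. Stretches over the NFR had wildtype medians of 297 bp, 262 bp and 268.75 bp at these origins. The part of either in the co-occurrence was not tested. The 65.3% of ARS316 in replicate 1 rests on 37.6 molecules with a protected NFR (mean of 5 thinning draws).

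Footprint lengths were read from stretches of at least 50 bp that are bounded by methylated positions on both sides. Footprints of 100 bp or more and under 200 bp, the size of a nucleosome, made up 35.8% of footprints at ARS305 in wildtype and 36.5% and 39.2% in ies6Δ. At ARS315 the share was 33.6% against 34.5% and 36.9%, at ARS313 34.6% against 33.2% and 35.5%, and at ARS316 31.9% against 30.6% and 32.9%. The median difference of 0.974 percentage points is smaller than the distance between the ies6Δ libraries, and wildtype lay between them at both LI origins. A molecule carried 1.60 such footprints at ARS305 in wildtype and 1.72 and 1.86 in ies6Δ, and 5.19, 5.28 and 5.76 on the array.

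Longer footprints were less frequent in ies6Δ, on the origins as on the array. Footprints of 200 bp or more numbered 0.641 for each ARS305 molecule in wildtype and 0.413 and 0.459 in ies6Δ. At ARS315 there were 0.853 in wildtype against 0.595 and 0.698 in ies6Δ. At ARS313 there were 0.725 against 0.460 and 0.549, and at ARS316 0.901 against 0.623 and 0.631. The ies6Δ mean was 0.68, 0.76, 0.70 and 0.70 times wildtype at these 4 origins. On the array the values were 0.561 in wildtype and 0.415 and 0.379 in ies6Δ, a ratio of 0.71. The fall in the number of long footprints on the origins was therefore similar in size to that on the in vitro array after thinning. Without thinning the array fell further, to 0.34 times wildtype, against 0.54 to 0.63 times at the origins. Footprints of 400 bp or more made up 1.39% of footprints at ARS305 in wildtype and 0.818% and 0.834% in ies6Δ, and 3.25% against 1.32% and 1.64% at ARS315.

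**Figure D3:**
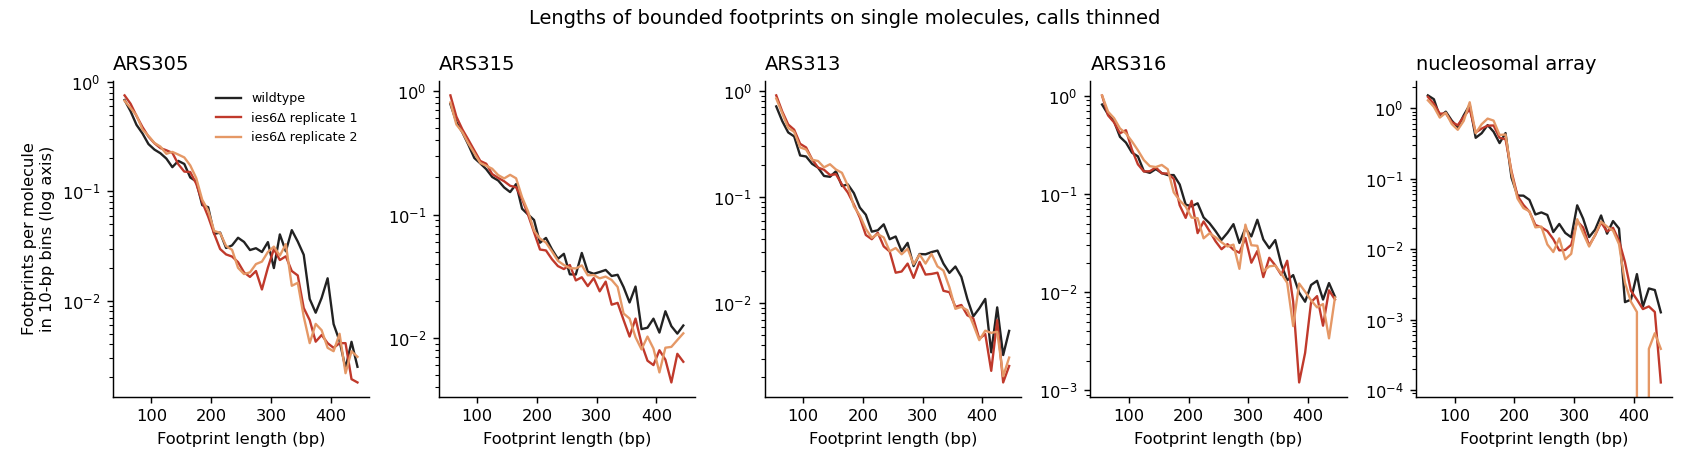
Bounded footprints for each molecule (log axis) by length in 10-bp bins, at the 4 origins and on the nucleosomal array, for wildtype (black) and both ies6Δ libraries (red, orange), after thinning. The lines part above about 200 bp, where wildtype lies higher at the origins and, over much of the range, on the array.

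Next, the centres of nucleosome-size footprints were mapped. Peaks of centres lay on both sides of an NFR with few centres, and they were numbered outward from the middle of the NFR. The distances between them were least regular on the + side of ARS316. On the array, the 10 distances between neighbouring peaks had a median of 187 bp in wildtype and of 186.5 bp in both ies6Δ libraries, and no peak lay more than 5 bp from wildtype. Shifts of up to this size thus occurred between libraries on the same reconstituted chromatin. At ARS305, the 3 peaks of the - side (119, 290 and 453 bp in wildtype) lay within 8 bp of wildtype in both ies6Δ libraries. The +1 peak lay at 668 bp in wildtype and at 684 bp and 688 bp in ies6Δ, that is 16 and 20 bp farther from the NFR. This shift came from forward molecules, with 656 bp in wildtype against 684 bp and 685 bp, whereas reverse molecules had 688 bp against 688 bp and 693 bp. The +2 peak lay at 851 bp in wildtype and at 857 bp and 867 bp in ies6Δ.

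The gap between the +1 and +2 peaks of ARS305 was deeper in ies6Δ. The density of centres at its lowest there was 0.28 times the mean of the peaks in wildtype and 0.15 and 0.075 times in ies6Δ. This profile is the mean of both strands, whose +1 peaks lay apart in wildtype (656 bp on forward and 688 bp on reverse molecules). The other gaps within a side were shallower in ies6Δ. The values were 0.056 times against 0.10 and 0.097 times between the third and second - side peaks. They were 0.105 times against 0.136 and 0.129 times between the second and first, and 0.28 times against 0.51 and 0.31 times between the +2 and +3 peaks. There were 21.8 centres at the +1 peak for 100 wildtype molecules, and 31.8 and 34.6 in ies6Δ. At the - side 1 peak the numbers were 28.8 in wildtype and 27.4 and 32.1 in ies6Δ, so that ies6Δ lay on both sides of wildtype there.

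At ARS315, the +1 peak lay at 627 bp in wildtype and at 647 bp and 648 bp in ies6Δ, and the +2 peak at 815 bp against 853 bp and 852 bp. The +2 shift was seen on both strands (801 bp against 859 bp and 822 bp on forward, 823 bp against 841 bp and 852 bp on reverse molecules). The +1 shift was not, since reverse molecules had 682 bp in wildtype against 647 bp and 656 bp, which is the opposite direction. On the - side of ARS315, the peaks became less distinct. The lowest density between the third and second peak of the - side was 0.27 times the mean of the peaks in wildtype and 0.61 and 0.51 times in ies6Δ, and between the second and first peak 0.32 times against 0.67 and 0.67 times. The direction of change at ARS315 was thus opposite on the - side and between the +1 and +2 peaks, where the lowest density was 0.25 times in wildtype and 0.18 and 0.15 times in ies6Δ.

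At ARS313, all 5 peaks of the ies6Δ libraries lay within 7 bp of wildtype over both strands together. On single strands differences were larger. The outermost + side peak, for example, lay at 126 bp against 158 bp and 159 bp on forward molecules. On reverse molecules it lay at 106 bp against 120 bp and 118 bp. The gap of the NFR was deeper at ARS313, with 0.18 times the mean of the flanking peaks in wildtype and 0.084 and 0.045 times in ies6Δ. At ARS305 it was also deeper (0.020 times against 0.018 and 0.0038 times). It was shallower in both ies6Δ libraries at ARS315 (0.052 times against 0.10 and 0.065 times) and at ARS316 (0.12 times against 0.19 and 0.23 times). At ARS316, the - side 1 peak lay at 557 bp in wildtype and at 542 bp in both ies6Δ libraries, and the last peak of the + side at 1127 bp against 1150 bp and 1152 bp. The - side 1 shift came from forward molecules (555 bp against 542 bp in both libraries). Reverse molecules had 563 bp against 562 bp and 559 bp. The first + side peak of ARS316 lies within the NFR and is weak (7.35 centres for 100 molecules in wildtype, 6.50 and 9.42 in ies6Δ). It was placed at 628 bp in wildtype and at 670 bp and 671 bp in ies6Δ, but the wildtype value lies near the limit of the search interval and on each strand the order differs (705 bp against 704 bp and 684 bp on forward, 628 bp against 626 bp and 670 bp on reverse molecules). The third + side peak lay at 942 bp against 950 bp and 916 bp, with the ies6Δ libraries on both sides of wildtype. The second + side peak differed between the ies6Δ libraries (776 bp and 821 bp, against 775 bp in wildtype).

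**Figure D4:**
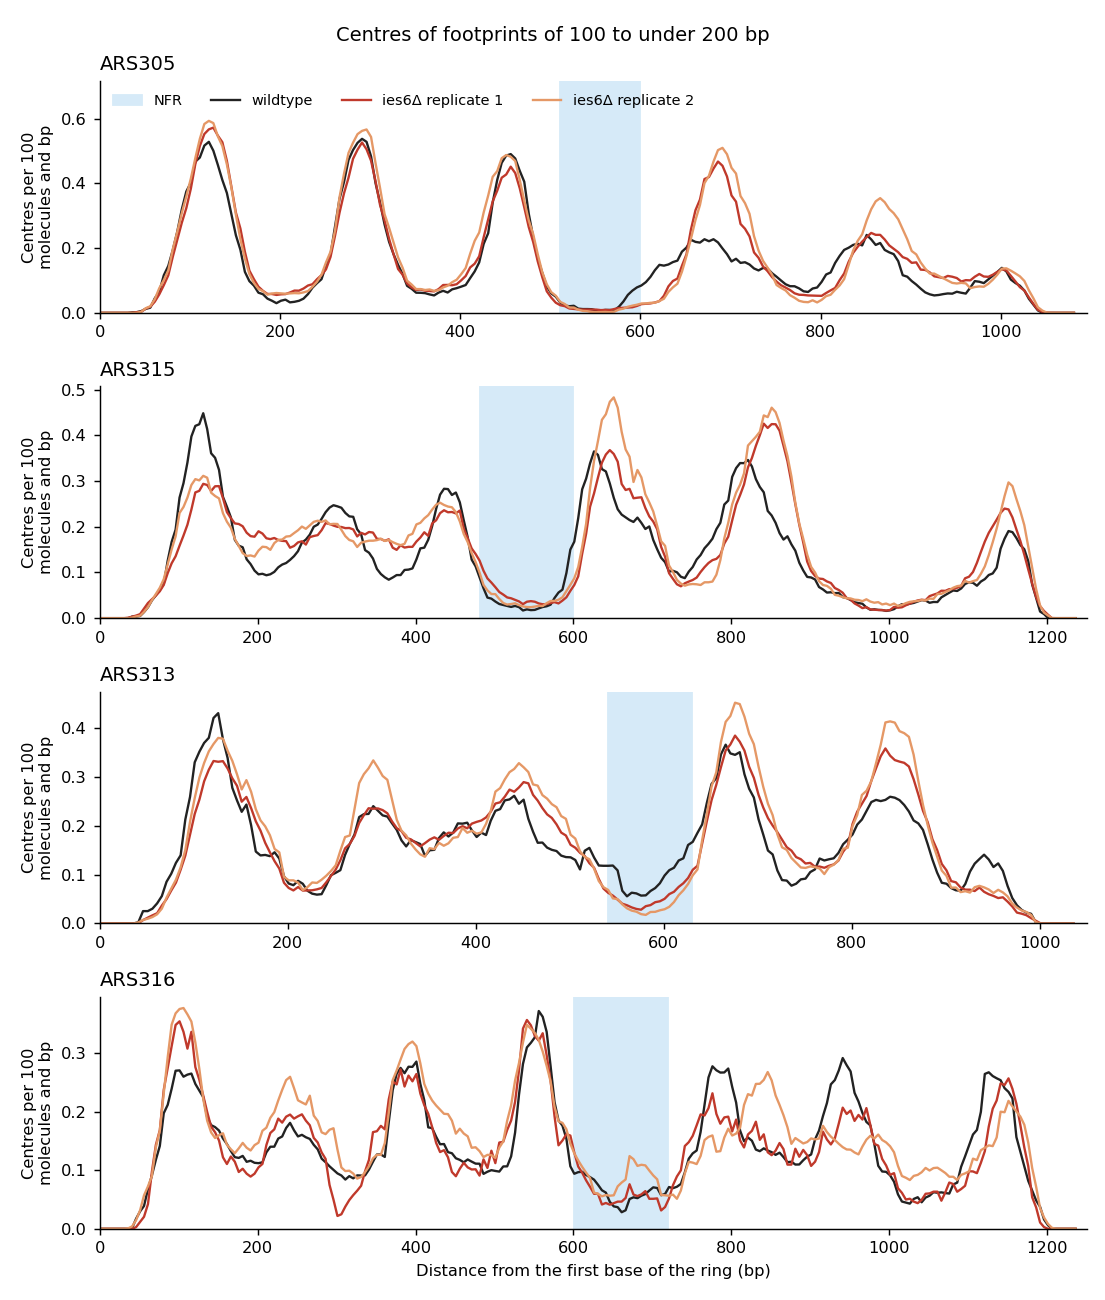
Centres of footprints of 100 bp or more and under 200 bp for 100 molecules and bp (smoothed over 41 bp), along the 4 rings (distance from the first base, bp), for wildtype (black) and both ies6Δ libraries (red, orange), with the NFR shaded. The +1 and +2 peaks of ARS305 and ARS315 lie farther to the right in ies6Δ over both strands together. The outermost + side peaks of these origins show no shift common to both ies6Δ libraries, and the - side peaks of ARS315 are flatter.

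Spacing was measured on molecules as the distance between the centres of consecutive nucleosome-size footprints with under 100 bp between them. The median distance at ARS305 was 167.75 bp in wildtype and 168 bp and 167.75 bp in ies6Δ. At ARS315 it was 164.5 bp in wildtype and 170.6 bp and 170.75 bp in ies6Δ, at ARS313 165.5 bp against 167.25 bp and 167.5 bp, and at ARS316 164.6 bp against 173.25 bp and 159 bp. The array gave 184.25 bp in wildtype and 184 bp and 184.75 bp in ies6Δ. The median difference over the origins was 1.69 bp, and only at ARS315 did both ies6Δ libraries differ from wildtype by more than 2 bp in 1 direction. This spacing does not resolve which nucleosomes are involved, because it mixes all neighbours of a ring.

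The linker on a molecule, taken as the gap between neighbouring footprints, had a longer median in ies6Δ at 3 origins. At the origins its lower quartile was only 1 to 2.5 bp in wildtype and ies6Δ. Part of these gaps are thus 1 or a few methylated positions that split a longer unmethylated stretch. At ARS305 the median was 17.5 bp in wildtype and 26 bp and 23.5 bp in ies6Δ. At ARS315 it was 8.5 bp against 19.5 bp in both libraries, and at ARS313 15 bp against 21 bp and 21.5 bp. The values of ARS316 were 11 bp in wildtype and 25.25 bp and 9 bp in ies6Δ, with wildtype between the libraries. On the array the linker was 39.5 bp in wildtype and 37.5 bp and 37 bp in ies6Δ after thinning, but 42.5 bp against 50.5 bp and 47 bp without it. The array is therefore no settled contrast to the linkers of the origins.

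For pairs of defined nucleosomes, the distance between the +1 and +2 footprints of ARS305 was 162.9 bp in wildtype (93.6 molecules, mean of 5 thinning draws) and 173.8 bp and 174.5 bp in ies6Δ (126.2 and 191.4 molecules). The linker between them was 11.8 bp in wildtype and 28.5 bp in both ies6Δ libraries. The longer distance came from reverse molecules (152 bp in wildtype against 175 bp and 174.5 bp), while forward molecules had 173.5 bp against 172.5 bp and 174.5 bp. The distance between the centre peaks had the opposite sign, with 183 bp in wildtype and less in both ies6Δ libraries (173 bp in replicate 1), so that the direction at this pair depends on the measure. At ARS315 the +1/+2 distance was 172.4 bp in wildtype and 174.0 bp and 174.4 bp in ies6Δ, but the linker was 10 bp against 23.5 bp and 22.2 bp. The distance thus changed by less than the linker.

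Across the NFR, the median distance between the nearest footprints of the 2 sides on a molecule was longer in ies6Δ at 3 origins. At ARS305 the distance from the -1 to the +1 footprint was 209.2 bp in wildtype and 217.2 bp and 225.8 bp in ies6Δ. At ARS315 it was 190.5 bp against 201 bp and 210 bp, and at ARS313 193.5 bp against 209.8 bp and 211.8 bp. These medians rest on 64.6, 77.2 and 38.4 wildtype molecules. The centre peaks across the NFR were also farther apart at ARS305 (215 bp against 229 bp and 238 bp) and at ARS315 (191 bp against 208 bp and 224 bp), but closer at ARS313 (236 bp against 228 bp and 229 bp). At ARS316 such pairs were found on 23.6 wildtype molecules and on 1.4 and 13.8 ies6Δ molecules, which is too few to compare. On the - side of ARS305, the distance from the second to the first footprint was 163.2 bp in wildtype and 160 bp and 159 bp in ies6Δ.

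Methylation levels were compared in the same windows. They were higher in ies6Δ in 48 windows (31.6% of those tested, limma with Benjamini-Hochberg adjustment) and lower in 6 (3.95%). By origin, 7 windows rose and 1 fell at ARS305, 13 rose and 5 fell at ARS315, and 12 and 16 rose at ARS313 and ARS316, where none fell. When levels were divided by the plasmid mean, no window passed the threshold in limma, with 48 at an unadjusted p under 0.05, although all 54 called windows kept their direction. Without normalization 105 windows were higher and none lower. The median log2 change of all windows was 0.20, and it was 0.27 with the plasmid and 0.68 without normalization, so that each call is read against a shift of the rings as a whole.

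**Figure D5:**
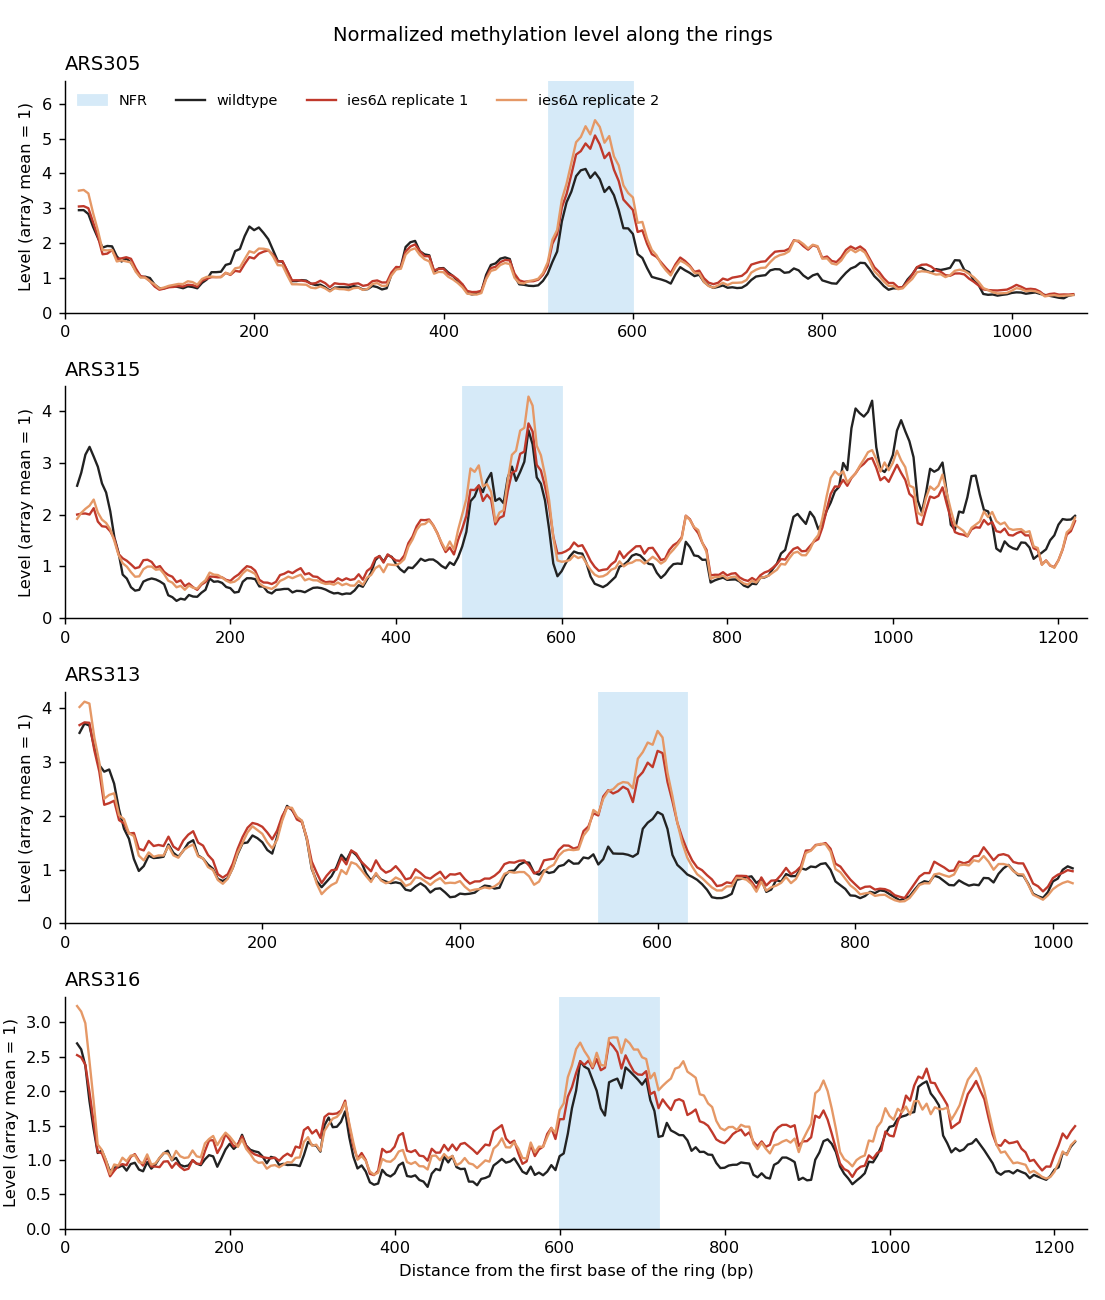
Methylation level (array mean = 1, running mean over 30 bp) along the 4 rings (distance from the first base, bp), for wildtype (black) and both ies6Δ libraries (red, orange), with the NFR shaded. The ies6Δ lines lie above wildtype over the NFR of ARS305 and ARS313 and below it over the Tvs1 promoter at the right of the ARS315 ring.

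At ARS305, the window with the largest change lies in the region named as the +1/+2 linker. The level at positions 781–810 was 1.12 in wildtype and 1.89 and 1.91 in ies6Δ (log2 change 0.77 ± 0.15 SE, limma adjusted p = 1.1e-05). Over the linker as a region it was 1.12 against 1.71 and 1.65 (log2 change 0.58 ± 0.10 SE, limma adjusted p = 2.8e-06). The windows at positions 601–630, on the + side edge of the NFR, and 751–780 had 1.28 against 1.98 and 2.13, and 1.17 against 1.84 and 1.77. The level of the NFR was 3.15 in wildtype and 3.84 and 4.20 in ies6Δ, and its + side edge had 1.19 against 1.68 and 1.73. The ARS had 2.70 against 3.49 and 3.82. The 1 window that fell, at positions 181–210 in a linker of the - side, had 2.48 in wildtype and 1.60 and 1.77 in ies6Δ.

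At ARS315, the called windows outside the NFR rose where the wildtype level was low and fell where it was high. The level and the change both hold the same wildtype value, so this order is not independent of that library. The level at positions 121–150 was 0.334 in wildtype and 0.696 and 0.597 in ies6Δ (log2 change 0.95 ± 0.15 SE, limma adjusted p = 9.3e-08). At positions 271–300 it was 0.524 against 0.967 and 0.840, and at positions 421–450 1.11 against 1.89 and 1.82. At positions 1–60 the level was 2.58 in wildtype and 1.89 and 1.91 in ies6Δ, and at positions 961–990 in the TVS1 promoter 4.20 against 3.10 and 3.25. The whole promoter had 2.99 in wildtype and 2.39 and 2.54 in ies6Δ (log2 change -0.28 ± 0.10 SE, limma adjusted p = 0.011), and its edge facing the ARS 1.60 against 1.37 in both libraries. Without normalization both values turn positive (log2 change 0.19 and 0.26). The NFR of ARS315 had 2.35 in wildtype and 2.45 and 2.71 in ies6Δ, which did not pass the test (limma adjusted p = 0.21). Nor did the ARS, with 1.61 against 1.78 and 1.83 (limma adjusted p = 0.12). The +1/+2 linker rose from 1.01 to 1.31 and 1.28, and the far edge of the promoter from 1.40 to 1.68 and 1.80.

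At ARS313, the NFR had the largest change of all 19 regions, with 1.44 in wildtype and 2.49 and 2.68 in ies6Δ (log2 change 0.84 ± 0.10 SE, limma adjusted p = 5.2e-09). The level at positions 541–570 was 1.3 in wildtype and 2.41 and 2.49 in ies6Δ, at positions 571–600 1.76 against 2.80 and 3.18, and at positions 601–630 1.27 against 2.27 and 2.36. The ARS had 1.43 against 2.31 and 2.43, and the + side of the NFR 1.09 against 1.46 and 1.36. Both strands of the NFR showed it, with 1.61 against 2.86 and 3.31 on forward reads and 1.3 against 2.18 and 2.12 on reverse reads. The + side linker of ARS313 had 1.88 in wildtype and 2.00 and 1.94 in ies6Δ (limma adjusted p = 0.51). The NFR level thus lay below that of the + side linker in wildtype and above it in ies6Δ.

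At ARS316, the region named as the first downstream linker had 1.11 in wildtype and 1.61 and 2.02 in ies6Δ (log2 change 0.70 ± 0.10 SE, limma adjusted p = 1.2e-07). The region named as the second had 1.01 against 1.53 in both libraries. The level at positions 1081–1110 was 1.22 in wildtype and 1.96 and 2.166 in ies6Δ, at positions 751–780 1.19 against 1.73 and 2.20, and at positions 571–600, beside the NFR, 0.831 against 1.38 and 1.33. The NFR itself had 2.00 in wildtype and 2.29 and 2.49 in ies6Δ (log2 change 0.26 ± 0.10 SE, limma adjusted p = 0.017). Its + side had 1.11 against 1.52 and 1.83, and the ARS 1.53 against 1.87 and 2.09.

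In all, 16 of 19 regions were called (84.2%), of which 14 rose (73.7%) and 2 fell (10.5%). Of all windows, 35.5% were called. The regions were read from a figure of the same experiment that marks where the mutants differ from wildtype. Some also overlap, since the ARS holds the NFR at ARS315 and ARS316. Their share of calls is therefore no independent result. When either isw2Δ library was left out, 6 regions passed the threshold in limma, namely the + side edge and the +1/+2 linker of ARS305, the +1/+2 linker of ARS315, the ARS and the NFR of ARS313 and the second downstream linker of ARS316. The isw2Δ libraries also lay above wildtype in 18 of the 19 regions, and no difference between the mutants was tested. Between the oligonucleotide pairs shown above, the mean level was 1.97 in wildtype and 2.46 and 2.62 in ies6Δ at ARS305, 1.65 against 1.83 and 1.89 at ARS315, 1.22 against 1.83 in both libraries at ARS313, and 1.66 against 1.94 and 2.09 at ARS316.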

How the data were processed

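The authors deposited fractions (0 or 1 for each base and read) in 1 table for every locus and strand of a library, called from Megalodon scores with their own thresholds after alignment to R64. The values are not normalized. The calls could not be varied, and 1 incomplete read was left out. Means by position were divided by the array mean of the library and strand and averaged over 30-bp windows. For footprints, calls were thinned to a common array mean in 5 random draws, which were averaged. Changes were tested with limma in all 5 libraries (ies6Δ minus wildtype, 2 residual degrees of freedom, threshold 0.05 after Benjamini-Hochberg adjustment), on log2 levels or log2 odds of protection. Single values for 3 libraries are given without a test. Named are all 19 regions and, for each origin and fit, the 3 called windows whose log2 change was farthest from 0, with the same sign in both ies6Δ libraries. Members, regions and tests were chosen with earlier results of these data known, the depth of the gaps between centre peaks and the restriction to molecules of at least 10 calls after these values were seen. Whether the libraries came from separate cultures is not stated in the labels, and p-values measure only the spread between these libraries. Alternatives covered spike-in, strand, window size, stretch length, thinning, read number and libraries left out. Footprint detection and limma were tested on simulated data. Software was limma 3.58.1 in R 4.3.3, and Python 3.11.15 (pandas 2.3.3, NumPy 2.4.6, SciPy 1.17.1, Matplotlib 3.10.9).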

Additional observations from a re-analysis of the deposited data

How the results depend on the processing

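Windows with a changed level numbered 54, but 33 with 50-bp windows, 29 with at most 80 reads for each strand, 33 with forward reads alone, 0 with the naked plasmid as spike-in and 105 without normalization (all higher), and 38 to 52 with a library left out. Regions numbered 16, but 6 with the 3 libraries alone and 7 with at most 80 reads, and 6 to 16 with a library left out. Windows with changed protection numbered 55, but 30 with stretches of at least 120 bp, 100 without thinning, 33 with reverse reads alone, 33 with thinning to the naked plasmid and 0 to 71 with a library left out. The replicate numbers did not pair the libraries (2 pairs, correlation of deviations 0.11). With the replicate block, 42 windows, 15 regions and 25 protected windows were called. The NFR of ARS315 had a log2 change of -0.0014 with reverse reads alone. Without normalization, the ARS315 promoter edge facing the ARS changed by 0.26 and the Tvs1 promoter by 0.19, and without thinning (chosen after seeing the data) their protected shares changed by -3.53 and -0.0687 percentage points. The protected share differed by -14.9 percentage points without thinning (-11.7 to -6.78 with a library left out). The difference in nucleosome-size share was 4.52 with isolated calls ignored, -0.31 with forward reads and -0.256 to 2.165 with a library left out. The difference in spacing was 3.97 bp with isolated calls ignored, -0.25 bp with forward reads, -0.25 bp with footprints of 120 bp or more and under 180 bp, and 1.0 to 3.94 bp with a library left out. The sign of both differences is therefore not settled. Of 266 refits of single regions, 208 kept direction and side of the threshold, 49 lost the call, 6 gained it and 3 changed sign. The cause of these changes was not tested. Placing the rings on the chromosome was not run. ARS316 in ies6Δ is the shallowest of the origins, with 83 molecules on a strand.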

Other observations

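Methylation varied less between molecules in ies6Δ. The SD over the mean of methylation by molecule, after thinning, was 0.698 at ARS305 in wildtype and 0.499 and 0.497 in ies6Δ, 0.656 against 0.505 and 0.501 at ARS313, and 0.770 against 0.595 and 0.591 at ARS316. At ARS315 it was 0.470 against 0.434 and 0.418, and on the array 0.506 against 0.494 and 0.463. At ARS305, the 10th percentile over molecules was 2.31% of positions methylated in wildtype and 4.25% and 4.71% in ies6Δ, while the 90th percentile was 16.8%, 16.4% and 16.2%.

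Spacing was also read without any length threshold, as the correlation of methylation between sites of a molecule (phi, less its mean at 350 to 450 bp). On the array it had a second peak at 180 bp in all 3 libraries (0.035 in wildtype, 0.039 and 0.037 in ies6Δ). ARS315 had one at 180 bp in wildtype (0.018) and at 190 bp and 180 bp in ies6Δ (0.021 and 0.019). The other origins had no common second peak, taken as the highest value of a search that begins at 150 bp. It lay at 200 bp in wildtype against 220 bp and 160 bp at ARS305, and at 160 bp against 180 bp and 160 bp at ARS316. At ARS313 it lay at 150 bp against 200 bp in both ies6Δ libraries. The wildtype value of ARS313 is the edge of the search and no peak, since phi fell from 0.041 at 100 bp to 0.032 at 150 bp and 0.018 at 180 bp. At 10 bp, phi at ARS305 was 0.105 in wildtype and 0.133 and 0.158 in ies6Δ, and on the array 0.028 against 0.059 and 0.045. On the naked plasmid it went the other way, with 0.037 in wildtype and 0.033 and 0.030 in ies6Δ. These values are descriptions, since sites of a molecule share its overall methylation. Calls were not thinned for phi, and sites methylated in 5% to 95% of molecules were chosen in each library by itself. At ARS305 these were 631 sites in wildtype and 733 and 715 in ies6Δ, and on the array 721 against 1160 and 865. Phi is therefore not compared at equal methylation rates or over the same sites.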
